A study of Emberiza melanocephala with 15 samples.

Results

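The 200 assembled genes with the highest levels in the hypothalamus of the blackheaded bunting (Emberiza melanocephala) were described across 15 birds. They were selected on abundance itself. The TPM values (which divide the reads of a transcript by its effective length and scale every library to the same total) of all transcripts of an assembled gene were summed in each library. The genes were then ranked by the median of these sums over the 15 libraries, and ranks 1 to 200 of 317533 genes were taken. The median TPM that chose them is therefore given as a description and supports nothing. The birds were wild-caught adult males kept for many weeks on short days, which left them photosensitive, or on long days, which left them photorefractory. The birds were then housed singly, and the photosensitive birds went to still shorter days for some weeks while the photorefractory birds stayed on long days, and on the day of sampling the lights were left on for both states. Hypothalami were taken at hours 10, 14, 18 and 22 after lights on, from 2 birds of each state and hour. The paper excluded 1 photorefractory sample of hour 22 that failed a quality check, so a single bird represents that group. The states differ in the day length of the preceding weeks as well as in their photoperiodic response, and these cannot be told apart. Each library was 1 bird, so the values carry the spread between birds.

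The hypothalamus is the part of the brain in which birds read day length and from which they drive the seasonal growth and regression of the gonads. Photosensitive birds respond to a long day, whereas photorefractory birds no longer do so after prolonged long days. In libraries of total RNA from which ribosomal RNA has been depleted, the genes of highest level in a tissue commonly include mitochondrial transcripts, short non-coding RNAs, remnants of ribosomal RNA and the mRNAs of housekeeping and tissue-specific proteins. The deposited tables name the assembled genes only by assembly identifier, so the 200 genes are given by identifier. Their functions, and the markers by which a tissue would be checked, were not analysed here. Fewer cells of a type and less RNA per cell cannot be told apart in such bulk tissue.

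The genes were steeply graded. The median over birds fell from 25878 TPM at rank 1 through 3902 at rank 10 and 614 at rank 100 to 400.8 at rank 200. At the limit, TRINITY_DN97121_c1_g5 (rank 200) had a median of 400.8 TPM and the gene next in rank, TRINITY_DN92347_c3_g6, had 400.1, so the list ends in the middle of a continuous gradient. The lists of genes in single birds differed more. Between 132 and 180 of the 200 genes were among the 200 highest of a given library, 70 were so in every library, and 149 in 10 or more libraries. TRINITY_DN88399_c1_g2 was the gene of highest median. It had TPM values of 28577 and 17406 at hour 10, 25878 and 26966 at hour 14, 31161 and 48412 at hour 18 and 11019 and 9747 at hour 22 in the photosensitive birds, and of 27919 and 27185 at hour 10, 32179.5 and 21249 at hour 14, 16707 and 23317 at hour 18 and 11398 at hour 22 in the photorefractory birds. The 3 libraries of hour 22 were the lowest, and bird 2 of photosensitive hour 18 was the highest. TRINITY_DN79542_c3_g2 (rank 2) had TPM values of 3849 and 6471 at hour 10, 8533 and 3738 at hour 14, 8839 and 7139 at hour 18 and 9414 and 8665 at hour 22 in the photosensitive birds, and of 9170.1 and 10568 at hour 10, 11344 and 3676 at hour 14, 22684 and 15439 at hour 18 and 5429 at hour 22 in the photorefractory birds. Its 2 highest values were those of photorefractory hour 18, and its hour 22 values lay within the range of the other hours.

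**Figure D1:**
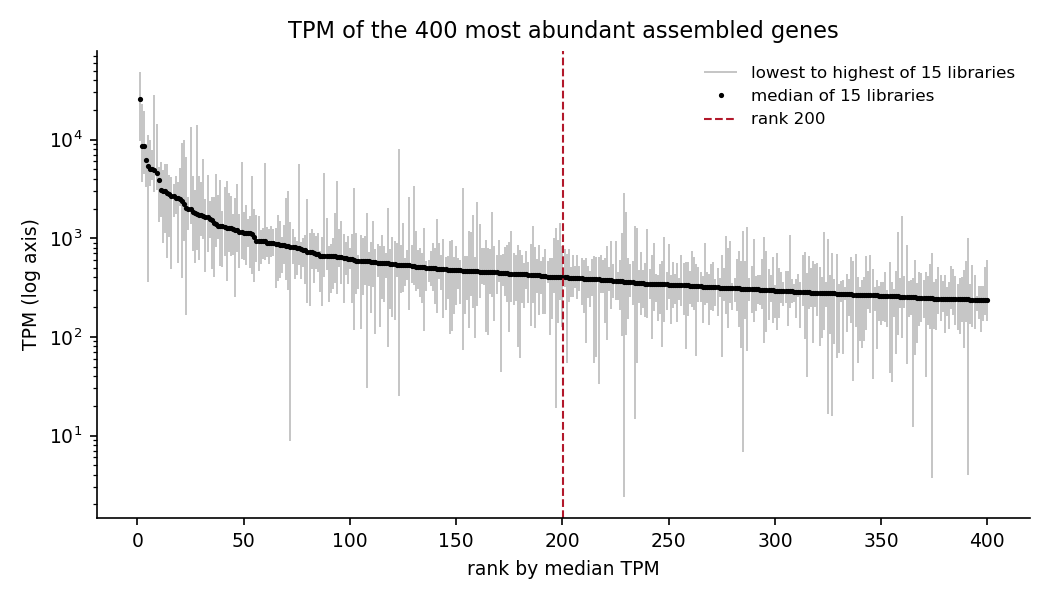
TPM on a log axis against rank by median TPM for the 400 most abundant assembled genes, with the median of 15 libraries as a point, the range of the 15 libraries as a grey line and rank 200 as a dashed line. The medians fall from 25878 TPM at rank 1 and 8665 at rank 2 to 400.8 at rank 200, with no break at rank 200. The ranges of neighbouring ranks overlap.

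The next 3 ranks showed other patterns. TRINITY_DN85498_c2_g2 (rank 3) had TPM values of 8514 and 8637 at hour 10, 10726 and 11114 at hour 14, 13318 and 19478 at hour 18 and 4519 and 4555 at hour 22 in the photosensitive birds, and of 8682 and 7895 at hour 10, 10323 and 7861 at hour 14, 5125 and 5406 at hour 18 and 5312 at hour 22 in the photorefractory birds. It was at or below 5406 TPM in the 3 libraries of hour 22 and both libraries of photorefractory hour 18, and at or above 7861 in all others. TRINITY_DN87801_c1_g2 (rank 4) had TPM values of 5449 and 5225 at hour 10, 6267 and 7101 at hour 14, 6273 and 8133 at hour 18 and 3285 and 3409 at hour 22 in the photosensitive birds, and of 8886 and 7824 at hour 10, 8929 and 7323 at hour 14, 5403 and 7019.9 at hour 18 and 3375 at hour 22 in the photorefractory birds. All its hour 22 values were below all others. TRINITY_DN80742_c4_g2 (rank 5) ranged from 4451 to 11245 TPM in 14 libraries and stood at 360.0 TPM in bird 2 of photosensitive hour 10. That value came from 768 estimated counts.

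The 200 genes were mostly short. The leading transcript of a gene, that with the highest mean TPM, had a median length of 308 nt (nucleotides), reached 3202 nt, and was shorter than 350 nt in 126 of the 200 genes. The effective length, which is the number of positions at which a fragment of the observed length can start and by which TPM divides the count, was under 100 nt for 110 of the 200 genes (55%). The share was 40.4% among the genes that followed up to rank 1000 and 13.6% among the 70608 genes tested below. Since the rule ranked by TPM and TPM divides by this length, the shortness is in part the rule itself. The genes held a median of 27.1% of TPM but 9.18% of estimated counts. Only 50 of them (25%) were also among the 200 genes of highest median share of counts, and 83 (41.5%) among the 200 genes ranked on transcripts of effective length 100 nt or more alone. With the mean in place of the median the lists shared 185 genes.

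Assembly structure was simple for most of the genes. The 200 genes comprised 554 transcripts, and 97 genes had 1 transcript. Of the 103 genes with more, 63 had over 90% of their mean TPM in 1 transcript, and in 82 the same transcript was highest in every library. The gene with the most transcripts, TRINITY_DN90672_c1_g1 (rank 179), had 28, of which the leading transcript of 212 nt carried 99.1% of the TPM. It ranged from 79.6 to 855 TPM. Among the genes named in this report the TPM was most divided in TRINITY_DN84224_c1_g1, TRINITY_DN89686_c4_g1 and TRINITY_DN86754_c0_g3. Their leading transcripts carried 51.1%, 55.7% and 56.9%. The identifiers place 81 of the genes in 33 read components with at least 1 other of the 200, with at most 4 in a component. Genes of a component can share sequence, so reads may have been divided between them, and these values are uncertain to that extent. Across the 15 libraries Pearson's r of log2(TPM + 1) had a median of 0.431 over the 65 pairs of genes within a component and 0.168 over all 19900 pairs, which are descriptions over libraries that share depth and composition.

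The share of all TPM held by the 200 genes was 27.1% and 20.3% at hour 10, 25.03% and 27.1% at hour 14, 27.2% and 32.0% at hour 18 and 18.5% and 18.7% at hour 22 in the photosensitive birds. It was 28.9% and 27.3% at hour 10, 30.1% and 23.2% at hour 14, 29.5% and 34.0% at hour 18 and 19.6% at hour 22 in the photorefractory birds. All 3 libraries of hour 22 were below the other 12, and the highest bird of each state was of hour 18. As means the share was 23.7% ± 4.87 (SD, n = 2), 26.1% ± 1.47, 29.6% ± 3.34 and 18.6% ± 0.133 at hours 10, 14, 18 and 22 in the photosensitive birds. The photorefractory means were 28.1% ± 1.08 (SD, n = 2), 26.7% ± 4.92 and 31.8% ± 3.17 at hours 10, 14 and 18, with 19.6% in the bird of hour 22. Within groups the pooled SD was 3.22 percentage points. The single highest gene held 0.975% to 4.84% of TPM, the 10 highest 5.17% to 12.5% and the 50 highest 10.8% to 22.4%.

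The share differed among hours by more than the spread between birds for the 200 genes as chosen. The choice bears on this, since the median over 15 libraries favours genes high in the 12 libraries of hours 10 to 18 and so can lower the share at hour 22. In an exact permutation test, in which hours were permuted within each state and the sum of squares between hours compared over all 1587600 arrangements, the TPM share of the 200 genes had p = 0.00582 and an adjusted p of 0.0175, and that of the 10 highest p = 0.00310 and an adjusted p of 0.0175 (Benjamini-Hochberg over the 6 share tests). The share of estimated counts, with 9.92% and 6.91% at hour 10, 8.88% and 8.95% at hour 14, 9.18% and 10.8% at hour 18 and 6.20% and 6.36% at hour 22 in the photosensitive birds, and with 10.5% and 9.60% at hour 10, 10.4% and 7.50% at hour 14, 10.6% and 11.6% at hour 18 and 6.57% at hour 22 in the photorefractory birds, had an exact permutation p of 0.0153 and an adjusted p of 0.0306. The call for the TPM share ended when the photorefractory bird of hour 22 was left out (adjusted permutation p = 0.0858), when the second photosensitive bird of hour 18 was (0.0640), and with transcripts of effective length 100 nt or more alone (0.133). Each library's own 200 highest genes, which do not favour genes high in most libraries and were tried once the data were known, held 20.8% to 21.9% of TPM at hour 22 and 20.8% to 36.2% in the other 12 libraries, with an exact permutation adjusted p of 0.0337 for hour. Bird 2 of photosensitive hour 10 (20.83%) then lay between the photosensitive birds of hour 22 (20.75% and 20.84%), and the share of counts of such genes lost its call for hour (adjusted permutation p = 0.0845).

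**Figure D2:**
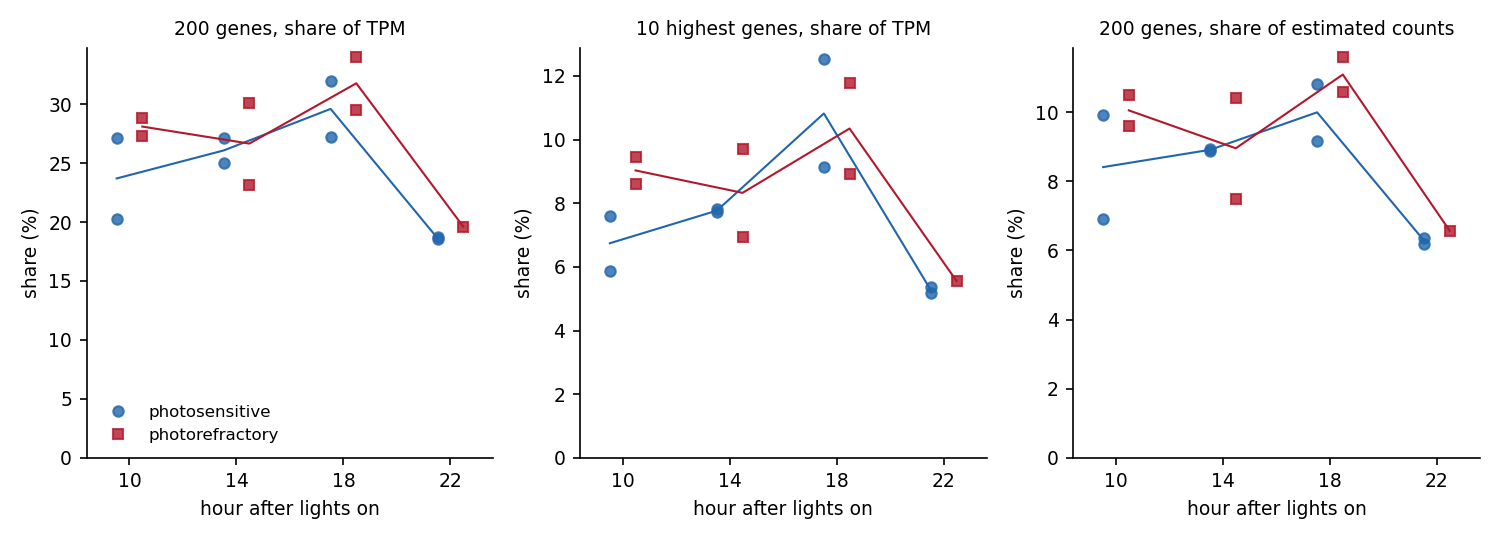
Share of all TPM in the 200 genes (left) and the 10 highest (middle), and share of estimated counts in the 200 genes (right), in percent against hour after lights on. Points are single birds, circles photosensitive and squares photorefractory, and lines join group means. The hour 22 birds sit at 18.5% to 19.6% in the left panel, below every other bird.

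Between the states the shares overlapped. The TPM share averaged 24.5% in the 8 photosensitive and 27.5% in the 7 photorefractory birds, a difference of 3.02 percentage points (exact permutation test within hours, two-sided, 648 arrangements, p = 0.0926, adjusted p = 0.128). For the 10 highest genes the difference was 1.06 percentage points (7.65% against 8.71%, exact permutation p = 0.193, adjusted p = 0.193), and for estimated counts 1.14 (8.40% against 9.54%, p = 0.106, adjusted p = 0.128). Without bird 2 of photorefractory hour 14 the adjusted p of the TPM share was 0.0296, past the threshold.

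Other measures moved with these groups. The 3 libraries of hour 22 were the deepest, with 8068941 to 9403923 pseudoaligned reads, and the 2 of photorefractory hour 18 the shallowest, with 3176062 and 3441451, against 4306137 to 7318462 in the other 10. Mean fragment length was 209 and 231 nt at photorefractory hour 18, 242 to 263 nt at hour 22 and 246 to 257 nt in the others. Because fragments set the effective length, a transcript of 300 nt had an effective length of 85.3 and 95.7 nt at photorefractory hour 18, 74.3 to 80.6 nt at hour 22 and 67.7 to 75.6 nt in the others. The part of depth and fragment length in the results on hour was not tested, beyond the values with effective length offsets given below.

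The levels of single genes varied moderately between birds. The CV (coefficient of variation, SD over mean) of TPM over the 15 libraries had a median of 37.4% over the 200 genes, with quartiles of 27.6% and 51.3% and a range of 13.7% to 192%. Counting error was small beside this, since the median estimated count of a gene had a median of 887 over the genes, which alone gives a CV of about 3.36%, and no gene had an estimated count under 5 in any library. All 200 therefore passed every filter on low counts of the tests over all libraries. The median CV was 32.7% in the 200 genes next in rank, 35.7% in the 600 after those and 76.2% over the 70608 genes tested, whose median count was 7. Among the 200, the 110 genes of effective length under 100 nt had a median CV of 41.6% and the 90 longer genes 33.0%. The ratio of the highest to the lowest library had a median of 4.06. It was at or under 2 in 11 genes, above 5 in 81 and above 10 in 27.

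Most of the variance lay between groups of birds. With the 8 groups alike, 50% of the sum of squares of log2(TPM + 1) would fall within groups on average, from 7 of 14 degrees of freedom. The median over the 200 genes was 15.6%, over the 200 genes next in rank 15.3% and over all genes tested 32.6%. All genes tested had a median count of 7, against 887 for the 200, and the part of counting error in the 32.6% was not tested. The biological CV that edgeR estimated, with state and hour as terms, had a median of 31.7% for the 200 genes and 46.9% for all genes tested. That fit allows no difference between the states in their change with hour, so such differences enter this estimate. TRINITY_DN89686_c4_g1 (rank 100) had the lowest CV, 13.7%, with TPM values of 485 and 509 at hour 10, 614 and 577 at hour 14, 588 and 668 at hour 18 and 673 and 739 at hour 22 in the photosensitive birds, and of 731 and 676 at hour 10, 576 and 586 at hour 14, 580.2 and 699.6 at hour 18 and 788 at hour 22 in the photorefractory birds. Its 2 lowest values were those of photosensitive hour 10 and its highest that of the photorefractory bird of hour 22, at a ratio of highest to lowest of 1.62. This order depends on the scaling. In CPM (counts per total count, with TMM factors) the hour 22 birds were at 632, 623 and 684, and bird 2 of photosensitive hour 22 was the lowest of all. On that scale bird 2 of photosensitive hour 18 was the highest, at 1567. The place of this gene as that of lowest CV held for TPM only. TRINITY_DN98683_c2_g2 (rank 126) followed with a CV of TPM of 14.3% and a range of 326 to 625.2 TPM. Its lowest value was that of bird 2 of photosensitive hour 18. In CPM the gene ran from 1264 to 1758.

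The least stable gene was TRINITY_DN96356_c20_g5 (rank 123), with a CV of 192%. It had TPM values of 49.9 and 96.8 at hour 10, 25.2 and 61.0 at hour 14, 1376 and 62.5 at hour 18 and 541 and 103 at hour 22 in the photosensitive birds, and of 1293 and 70.8 at hour 10, 1067 and 917 at hour 14, 1149.7 and 7957 at hour 18 and 741 at hour 22 in the photorefractory birds. Birds of the same group stood far apart, as 1376 and 62.5 TPM in photosensitive hour 18, so its median describes no group. The second highest CV, 117%, was that of TRINITY_DN93464_c5_g3, which was even within groups and is described under hour 18 below.

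Libraries sorted by the 200 genes as follows. The first principal component of log2(TPM + 1), with 39.8% of the variance, placed the 3 libraries of hour 22 at 10.4 to 12.1 and all others at or below 2.15. The second, with 24.1%, placed both libraries of photorefractory hour 18 at 11.02 and 12.4 and all others at or below 0.887. Spearman's rho across the 200 genes was 0.903 to 0.914 between the hour 22 libraries, of both states, and 0.297 to 0.692 between these and the others. It was 0.902 between the pair of photorefractory hour 18, and 0.387 to 0.679 between that pair and the other libraries of hours 10 to 18. Birds of the same group had 0.666 to 0.914. Of the 200 genes, 96 had their lowest value in an hour 22 library and 43 in a library of photorefractory hour 18. The highest value stood most often in bird 2 of photosensitive hour 18 (56 genes) and in photorefractory hour 18 (49 genes). No share over all genes tested is given beside these counts, so they are descriptions of the list. Ranking by the median over 15 libraries, of which 3 were of hour 22, favours genes that are low at hour 22. Between the birds of a group, chi-square per degree of freedom over the 200 genes was 54.3 to 545, and all libraries were kept as separate samples.

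**Figure D3:**
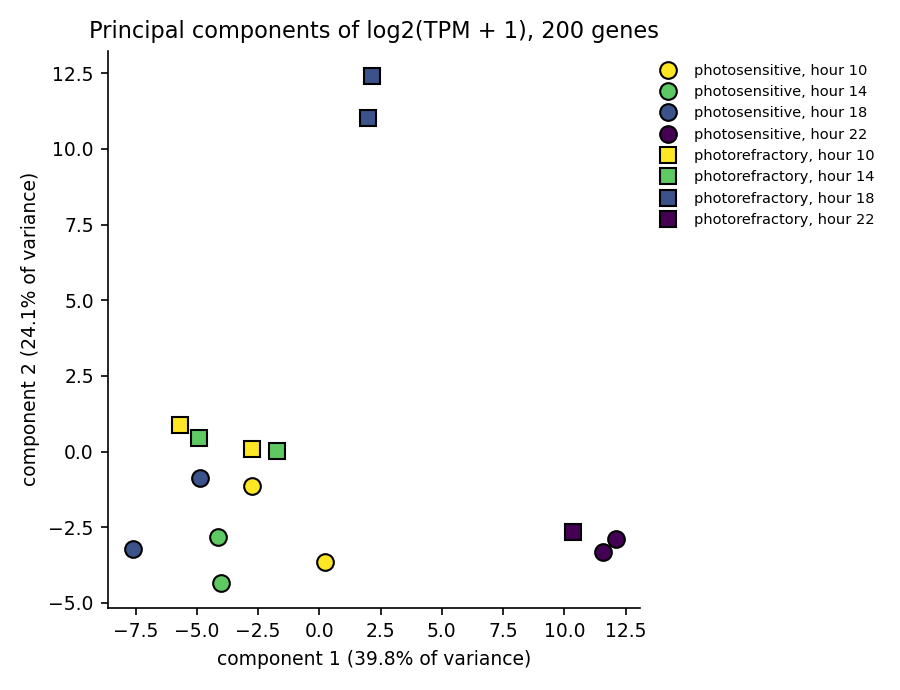
First principal component (39.8% of variance) against the second (24.1%) of log2(TPM + 1) over the 200 genes, with circles for photosensitive, squares for photorefractory birds and colour for hour. The 3 hour 22 libraries lie at 10.4 to 12.1 on the first component, and both photorefractory hour 18 libraries at 11.02 and 12.4 on the second.

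Of the hours compared with hour 10, hour 22 had the most calls among the 200 genes. The change with hour was tested by edgeR's quasi-likelihood test on estimated counts in all 15 libraries, with state as a term, TMM factors and Benjamini-Hochberg adjustment over the 70608 genes with at least 5 counts in at least 2 libraries. At an adjusted p at or below 0.05, 94 of the 200 genes (47.0%) were called at hour 22 against 18.0% of all genes tested. Of these 87 were lower (43.5%, against 8.02% of all genes) and 7 higher (3.50%, against 10.0%). The 800 genes that followed in rank moved likewise, with 34.9% called lower, 5.88% higher and a median log2 fold change of -0.64, and whether the 200 differ from them was not tested. The median log2 fold change of the 200 was -0.90, as against 0.16 over all genes tested, and 167 of the 200 were below 0. The median of the 200 lay below that of all genes under each scaling tried, at -0.90 to -0.82 against 0.16 to 0.22 with the count scalings, and at -0.56 against 0.22 on log2(TPM + 1). The 87 lower genes had log2 fold changes of -5.16 to -0.66, with a median of -1.39, and included 5 of the 10 highest ranks. The 7 higher ones had 0.72 to 2.21 and ranks from 89 to 196.

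The direction is in part set by the choice of genes. The median over 15 libraries is set mainly by the 12 libraries of hours 10 to 18, so that a gene high at hour 22 alone could not enter the list. When the 200 genes were instead ranked by the median TPM of the 3 hour 22 libraries, which favours the opposite direction and was tried once the data were known, 136 genes (68% of each list) were shared, 38 were called lower and 35 higher, and the median log2 fold change was -0.10. Among genes of 100 nt or more in effective length 40 of the 90 were lower and 5 higher, and among shorter ones 47 of 110 were lower and 2 higher, with medians of -0.73 and -0.97. Of all genes tested, 7.33% were lower and 11.1% higher at 100 nt or more, and 12.4% lower and 2.86% higher under 100 nt, with medians of 0.22 and -0.30. With an offset for the effective length of each gene in each library, likewise tried once the data were known, 86 were lower and 5 higher. Over all genes 16.3% were then called and 7.27% lower. The count moved with birds of hours 10 and 22. It was 61 and 58 when bird 1 or bird 2 of the photosensitive pair of hour 22 was left out, and 75 when the photorefractory bird was. It was 64 and 68 when bird 1 of hour 10 was left out in the photosensitive or the photorefractory state, and 115 when bird 2 of photosensitive hour 10 was. The share called over all genes tested moved with the same birds. It ran from 5.36% without bird 2 of photosensitive hour 22 to 21.5% without bird 2 of photosensitive hour 10, against 18.0% with all birds.

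**Figure D4:**
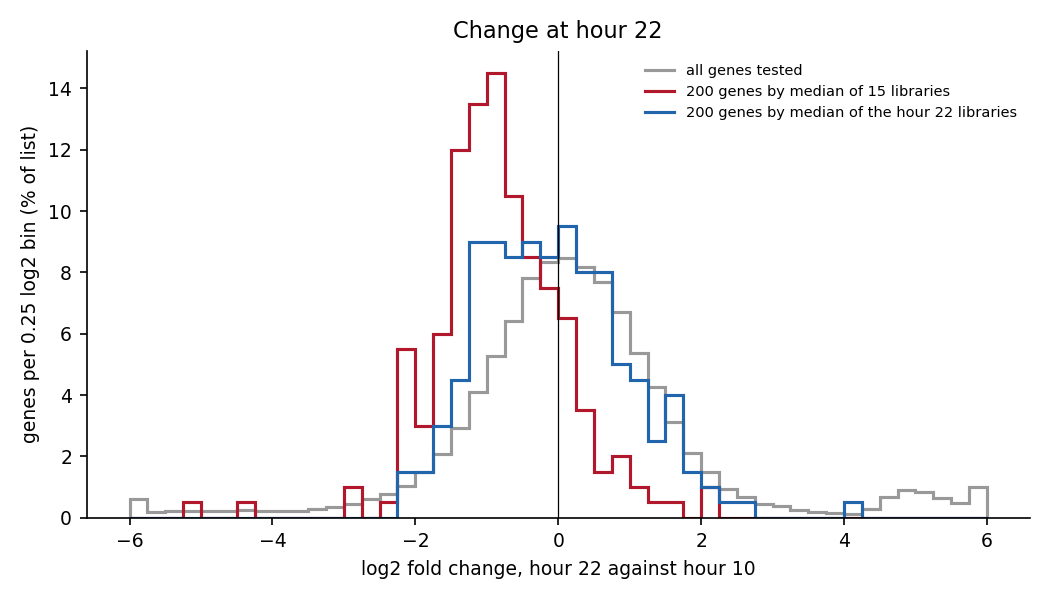
Log2 fold change at hour 22 against hour 10 in bins of 0.25, as percent of the genes in each list, for the 200 genes by the median of all 15 libraries (red), the 200 genes by the median of the hour 22 libraries (blue) and all genes tested (grey). The red list is centred at -0.90, the blue at -0.10 and the grey at 0.16.

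The gene of smallest p among those lower at hour 22 was TRINITY_DN84224_c1_g1 (rank 72). It had TPM values of 730.2 and 594 at hour 10, 794 and 842 at hour 14, 1060.5 and 1289 at hour 18 and 8.73 and 54.8 at hour 22 in the photosensitive birds, and of 1216 and 1134 at hour 10, 1452 and 828 at hour 14, 812 and 732 at hour 18 and 35.5 at hour 22 in the photorefractory birds. Every hour 22 bird was at or below 54.8 TPM, from as few as 5 counts, and every other bird at or above 594, a log2 fold change of -5.16 (standard error 0.55, adjusted p = 0.000182). TRINITY_DN89010_c2_g3 (rank 180) had TPM values of 546 and 347 at hour 10, 436 and 404 at hour 14, 578 and 765 at hour 18 and 99.6 and 60.9 at hour 22 in the photosensitive birds, and of 459 and 500.3 at hour 10, 498 and 477 at hour 14, 235 and 221 at hour 18 and 91.1 at hour 22 in the photorefractory birds. Its hour 22 values were below all others and those of photorefractory hour 18 the next lowest, with a log2 fold change at hour 22 of -2.81 (standard error 0.43, adjusted p = 0.00161). The adjusted p-values here and below are those of edgeR's quasi-likelihood test. The highest gene, TRINITY_DN88399_c1_g2, had a log2 fold change at hour 22 of -1.48 (standard error 0.37, adjusted p = 0.016), a change larger than the spread between birds. The second, TRINITY_DN79542_c3_g2, had -0.01 (standard error 0.43, adjusted p = 0.993), with no detectable change over both states. That value averages a rise from hour 10 in the photosensitive birds and a fall in the photorefractory ones. The photorefractory minus the photosensitive log2 change was -1.87, with 1 photorefractory bird at hour 22, and was not called.

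Among the higher genes at hour 22, TRINITY_DN86754_c0_g3 (rank 186) had TPM values of 343 and 656 at hour 10, 341 and 333 at hour 14, 412 and 220.2 at hour 18 and 1178 and 1336 at hour 22 in the photosensitive birds, and of 246 and 426 at hour 10, 530.2 and 507 at hour 14, 451 and 269.7 at hour 18 and 1072 at hour 22 in the photorefractory birds. All 3 hour 22 birds were at or above 1072 TPM and all others at or below 656, and the log2 fold change was 1.52 (standard error 0.24, adjusted p = 0.00206). TRINITY_DN96368_c9_g3 (rank 94) had TPM values of 1572 and 421 at hour 10, 426 and 647 at hour 14, 546 and 424 at hour 18 and 3809 and 3322 at hour 22 in the photosensitive birds, and of 269 and 689 at hour 10, 645 and 566 at hour 14, 662 and 1203 at hour 18 and 3748 at hour 22 in the photorefractory birds. The hour 22 birds of both states again did not overlap with the others, with bird 1 of photosensitive hour 10 the nearest, and the log2 fold change was 2.21 (standard error 0.41, adjusted p = 0.00424). In TPM, 51 of the 200 genes (25.5%) had all 3 hour 22 birds below all other birds, against 3.08% of the genes tested, and 8 (4%) had them above, against 14.6%. These counts share the limit given above for the choice of genes.

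Hours 14 and 18 were not set apart over both states. At hour 14 edgeR called 0 of the 200 genes and 0% of all genes tested, with 6 of the 200 at an unadjusted p under 0.05 (2218 of the 70608 genes), and DESeq2 and limma called 0 of the 200. At hour 18 edgeR called 0 of the 200 against 0.00283% of all genes, with 46 of the 200 at an unadjusted p under 0.05 (8044 of the 70608 genes). DESeq2 called 14 of the 200 at hour 18, against 248 higher and 461 lower of the 70608 genes, and limma 0. The medians were 0.03 and 0.23 on the log2 scale at these hours, against -0.01 and -0.11 over all genes, and ranged from -0.11 to 0.19 and from 0.03 to 0.42 with each bird left out. Between the states, with hour as a term, edgeR called 0 of the 200 and 0% of all genes, with 36 of the 200 at an unadjusted p under 0.05 (6205 of the 70608 genes). DESeq2 called 8 of the 200, all higher in photorefractory birds, against 0.220% of all genes (67 higher and 88 lower), and limma 0. The median log2 difference, photorefractory against photosensitive, was 0.03 over the 200 genes, with quartiles of -0.22 and 0.27, and turned to -0.02 without scaling factors and on the TPM scale, so it has no direction. Without the filter on low counts, edgeR called 32 of the 200 for state, 10 for hour 14 and 36 for hour 18, against 0.198%, 0.0593% and 0.302% of all genes.

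The states differed in their change from hour 10 at hour 18 for some of the 200 genes, in calls that depended on single birds. The interaction of state and hour, which is the photorefractory minus the photosensitive log2 change, was called for 11 of the 200 genes (5.50%) against 0.320% of all genes tested, of which 9 (4.50%, against 0.307%) were below 0 and 2 (1%, against 0.0127%) above. The 800 genes that followed in rank had the same share of calls (5.50%, all below 0) and a median of -0.68, and whether the 200 differ from them was not tested. The median over the 200 genes was -0.79, against 0 over all genes. It was -0.44 without bird 2 of photosensitive hour 18 and -1.10 when bird 1 of photosensitive hour 10 was left out. The interaction takes in the difference between the states at hour 10. In fits of the groups of each hour alone, photorefractory against photosensitive had a median of 0.45 at hour 10, with 171 of the 200 above 0. At hour 18 that median was -0.29, with 122 below 0. The part of the hour 10 difference in the -0.79 was not tested. TRINITY_DN98127_c2_g1 (rank 112) had TPM values of 574 and 547 at hour 10, 605 and 709 at hour 14, 659.7 and 781 at hour 18 and 208 and 210.1 at hour 22 in the photosensitive birds, and of 717 and 646 at hour 10, 718 and 539.6 at hour 14, 129 and 108 at hour 18 and 200.3 at hour 22 in the photorefractory birds. The pair of photorefractory hour 18 lay below all other birds, while photosensitive hour 18 had the highest mean of the groups, and the interaction was -3.12 (standard error 0.42, adjusted p = 0.0102). TRINITY_DN87486_c1_g3 (rank 16) had TPM values of 2841 and 2028 at hour 10, 2598 and 3218 at hour 14, 3162 and 4167 at hour 18 and 1126 and 1181 at hour 22 in the photosensitive birds, and of 3905 and 2699.7 at hour 10, 3636 and 3059 at hour 14, 490.4 and 516 at hour 18 and 1259.8 at hour 22 in the photorefractory birds. It followed the same order, with an interaction of -3.50 (standard error 0.50, adjusted p = 0.012). In both genes the hour 22 birds of both states were below all birds of hours 10 and 14.

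Both genes above 0 were high at photorefractory hour 18 alone or most. TRINITY_DN93464_c5_g3 (rank 88) had TPM values of 679 and 437 at hour 10, 448 and 553 at hour 14, 508 and 400.3 at hour 18 and 525.5 and 563 at hour 22 in the photosensitive birds, and of 775 and 810.4 at hour 10, 962.2 and 744 at hour 14, 4610.3 and 3867 at hour 18 and 663 at hour 22 in the photorefractory birds. The pair of photorefractory hour 18 was at or above 3867 TPM and all other birds at or below 962.2, and the interaction was 2.55 (standard error 0.42, adjusted p = 0.023). TRINITY_DN80742_c4_g1 (rank 28), of 220 nt, had TPM values of 1543 and 1329 at hour 10, 755 and 1274 at hour 14, 1255 and 1237 at hour 18 and 3425 and 3637 at hour 22 in the photosensitive birds, and of 1778 and 1900.4 at hour 10, 2185 and 1555 at hour 14, 10003 and 13995 at hour 18 and 4605 at hour 22 in the photorefractory birds. Its photorefractory hour 18 pair was highest. The 3 birds of hour 22 came next in TPM but overlapped with other birds in CPM with TMM factors. It had an interaction of 2.56 (standard error 0.44, adjusted p = 0.0267). In TPM, 25 of the 200 genes (12.5%) had both birds of photorefractory hour 18 above all others, against 2.86% of genes tested, and 23 (11.5%) had both below, against 5.46%. Most genes tested had far lower counts than the 200, and the part of this in the shares was not tested. The other 7 genes called had interactions between -3.81 and -2.18. These libraries are the 2 shallowest with the shortest fragments. With effective length offsets 12 genes were called, against 0.248% of all genes.

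**Figure D5:**
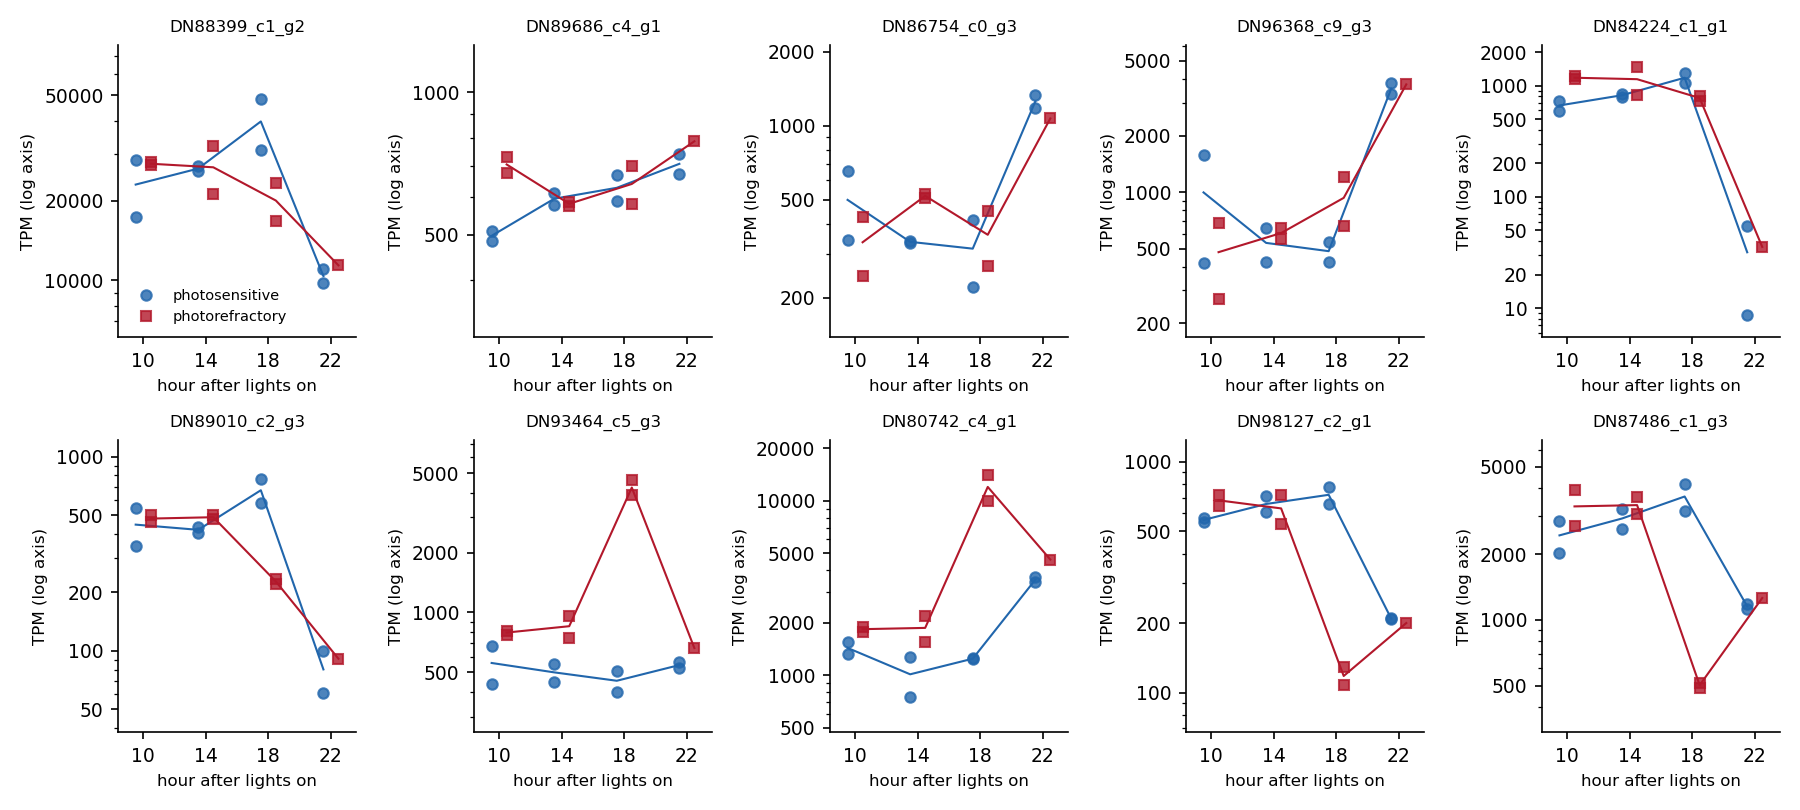
TPM on a log axis against hour after lights on for the gene of highest median, the gene of lowest CV, and the genes of smallest p at hour 22 and for the interaction at hour 18, named without the prefix TRINITY. Points are single birds, circles photosensitive and squares photorefractory, and lines join group means. DN84224_c1_g1 stands at or below 54.8 TPM in the 3 birds of hour 22, and DN93464_c5_g3 at 3867 TPM or more in the photorefractory birds of hour 18 alone.

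The count for this interaction depended on single birds, and calls over all genes tested rose and fell with the same birds. With a bird of hour 10 or hour 18 left out, a group compared held 1 bird, so medians of the 200 genes are given. Without bird 1 or bird 2 of photorefractory hour 18 the median was -0.70 and -0.88, with fewer calls than with all birds. It was -0.53 without bird 1 of photorefractory hour 10, also with fewer calls. Without bird 1 of photorefractory hour 14, 20 genes were called, against 0.472% of all genes. Leaving out bird 1 of photosensitive hour 18 gave a median of -1.02 with more calls, and leaving out bird 2 gave -0.44 with fewer. The median was -0.60 without bird 2 of photosensitive hour 10, with fewer calls. Without bird 2 of photosensitive hour 14, 7 genes were called, against 0.175% of all genes. Leaving out bird 1 or bird 2 of photosensitive hour 22 gave 19 calls each, against 0.560% and 0.568% of all genes. DESeq2 called 46 and edgeR with the bird number as a replicate block 24, against 2.08% and 0.564% of all genes. The interactions at hours 14 and 22 had 0 calls by edgeR among the 200 and 0% among all genes, with 22 and 19 of the 200 at an unadjusted p under 0.05 (5244 and 3207 of the 70608 genes), and DESeq2 and limma called 0 of the 200 at both. That of hour 22 rests on 1 photorefractory bird. The medians were -0.53 and -0.28 on the log2 scale, against 0.06 and 0.09 over all genes. Both medians take in the difference between the states at hour 10 given above. Single birds moved both. The median at hour 14 was -0.90 and -0.26 when bird 1 or bird 2 of photorefractory hour 14 was left out. That at hour 22 was -0.61 when bird 1 of photosensitive hour 10 was left out, -0.04 when bird 1 of photorefractory hour 10 was, and -0.03 without scaling factors, under which the median of all genes was 0.33.

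Groups were also compared in pairs, as in the study, each with its own libraries. Comparisons that share a group are not independent of each other. In the photosensitive birds, hours 14 and 18 against hour 10 had 0 calls among the 200 genes by edgeR, against 0.00203% and 0% of genes tested, with 38 and 72 of the 200 at an unadjusted p under 0.05 (3915 of 49271 and 4543 of 47718 genes). Hour 22 against hour 10 had 2 calls, both lower, against 0.129%. In the photorefractory birds hour 14 had 0 calls against 0.00229%, with 16 at an unadjusted p under 0.05 (2043 of 43596 genes), and hour 18 had 26 (11 higher and 15 lower) against 1.13%. Hour 22 set 1 bird against 2 and had 144 calls (11 higher and 133 lower) against 11.6%. The single bird is there assumed to vary like the pair of hour 10, so these calls carry no replicate check of hour 22. The medians of the 200 genes at hour 22 were -0.73 in the photosensitive and -1.09 in the photorefractory birds, and the difference between these medians was not tested.

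Between the states, 0 of the 200 genes were called at hour 10 (0% of genes tested, 49 of the 200 and 4233 of 46896 genes at an unadjusted p under 0.05), 1 at hour 14 (higher in photorefractory birds, against 0.00859%) and 9 at hour 18 (5 higher and 4 lower, against 0.118%). At hour 22, where the photorefractory state had 1 bird and no spread of its own, 24 were called (19 higher and 5 lower, against 1.04%). At least 1 of the 10 comparisons called 155 of the 200 genes, against 10.0% of the genes tested in any, and 29 of the 200 when those that involve the lone photorefractory bird were dropped. No share over all genes for the same comparisons is given beside the 29, and the 10.0% is not its background. With 1 bird of photorefractory hour 10 left out, hour 22 against hour 10 in that state set 1 bird against 1 and could not be fitted. Numbers obtained in this way lack that comparison.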

How the data were processed

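Hypothalamus RNA of 15 male buntings was sequenced on total RNA libraries depleted of ribosomal RNA. For the depletion the paper names a removal mix for plant ribosomal RNA, and how much ribosomal RNA remained was not tested. The authors trimmed reads with Trimmomatic, assembled them with Trinity, reduced redundancy with CD-HIT and pseudoaligned with kallisto (version not given in the sources used here) to 1 index of all time points. The deposited estimated counts are not normalized, and the deposited TPM values are scaled within each library by the authors' run of kallisto. Effective lengths were deposited beside them. Totals were 3176062 to 9403923 reads, and intervals and floors (a count of 0 allows 3 counts) cover counting error only.

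Both measures were summed per assembled gene over 552023 transcripts. Counts were rounded, which changed no total by more than 0.00197%. edgeR 4.0.16 (R 4.3.3) fitted the quasi-likelihood test with TMM factors. Standard errors are the absolute log2 fold change over the root of F. Shares were tested by exact permutation. Figures used matplotlib 3.10.9. The members and lists were chosen with earlier results of these data known. Named genes were the 5 of highest median TPM, rank 200 and the next, the 2 lowest and 2 highest CVs, the gene of most transcripts, and per contrast over all libraries at most 2 called genes in each direction of smallest p. Also tried were limma 3.58.1 on log2 TPM with 1 or 0.1 added, DESeq2 1.42.0, other scaling factors, no filter, a minimum of 10, the replicate block, 3 other choices of genes and leaving out each bird. Added after seeing the data were effective length offsets, ranking on hour 22 and each library's own highest genes. The edgeR fits over all libraries were also run on simulated counts with changes set at hour 22 only, and the outcome is not given here.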

Additional observations from a re-analysis of the deposited data

Results flagged for a closer look

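The change of 11 of the 200 genes from hour 10 to hour 18 differed between the states by a test of the interaction itself (edgeR's quasi-likelihood test). Those of smallest p were TRINITY_DN98127_c2_g1 (-3.12 on the log2 scale, photorefractory minus photosensitive), TRINITY_DN87486_c1_g3 (-3.50), TRINITY_DN93464_c5_g3 (2.55) and TRINITY_DN80742_c4_g1 (2.56). The number of calls moved with single birds, as given in the report. Each of these named genes lost its call when some single bird was left out.

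A sample far from the others of its state, by Dixon's test, was looked for in 42 sets of 7 or 8 birds, 6 of shares and 36 of named genes, for which chance alone gives about 1 in 20. That rate does not apply to the genes below, which were named for a high CV or a high level at hour 22. For TRINITY_DN96356_c20_g5 these were bird 1 of photosensitive hour 18 with 1376 TPM and bird 2 of photorefractory hour 18 with 7957 TPM. For TRINITY_DN86754_c0_g3 and TRINITY_DN96368_c9_g3 it was the photorefractory bird of hour 22, with 1072 and 3748 TPM, which is the 1 bird of its group and lies near the photosensitive birds of that hour (1178 and 1336, 3809 and 3322 TPM).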

How the results depend on the processing

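Among the alternatives run, the number of the 200 genes called at hour 22 (94) was within 1.5 times under every tool, scaling and choice of genes except limma on log2(TPM + 0.1), with 61, and ranged from 58 to 115 with each bird left out. For state (0), DESeq2 called 8 and no filter 32. For hour 14 (0), no filter called 10. For hour 18 (0), DESeq2 called 14, no filter 36, and leaving out birds 0 to 2. For the interactions at hours 14 and 22 (0 each), no filter called 7 and 6, against 0.115% and 0.0490% of all genes. For that at hour 18, no filter called 0.539% of all genes. For the interaction at hour 18 (11), DESeq2 called 46, no filter 57, the replicate block 24 and the 200 genes of highest share of counts 5, and leaving out birds gave 0 to 45. For any pairwise comparison (155), limma called 3 with 1 added to TPM and 13 with 0.1 added, all libraries in 1 fit 68 and the replicate block 83, the last without the comparisons of the single bird, and leaving out birds gave 59 to 177. This range covers 14 birds and not the photorefractory bird of hour 22, and without the comparisons of that bird 29 were called. The lowest number of the range was that without a bird of photorefractory hour 10, where hour 22 against hour 10 in that state could not be fitted. No share over all genes is given beside these pairwise counts. The cause was not tested, except that fewer comparisons or samples entered where stated. The bird numbers do not pair the birds in the labels, and deviations of same-numbered birds correlated at -0.157 to 0.0786 over 21 pairs of groups, so the paired fit stands only as an alternative. It changed no other call count by over 1.5 times.

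By share of counts and by transcripts of effective length 100 nt or more, the median TPM share of the 200 genes was 15.7% and 13.1% (27.1%), that of the 10 highest 5.21% and 3.42% (7.81%), the share of counts 16.7% and 11.1% (9.18%), and the median CV 26.5% and 31.2% (37.4%), since these settings choose other genes. The CV of CPM with TMM factors was 45.3%. Leaving out birds, these values were 27.1% to 27.3%, 7.77% to 8.21%, 8.98% to 9.43% and 35.1% to 38.5%. The adjusted p for hour, with effective length 100 nt or more, was 0.133, 0.184 and 0.133 for the shares of TPM, of the 10 highest and of counts, and 0.0845 for counts with each library's own genes. Leaving out birds it ranged from 0.00624 to 0.0858, 0.00418 to 0.0858 and 0.00624 to 0.119, and for state from 0.0296 to 0.300, 0.0741 to 0.481 and 0.0296 to 0.300. Of the 8 gene values named at hour 22 and for the interaction, all kept their direction under each alternative run, and those at hour 22 their call. For the interaction, TRINITY_DN98127_c2_g1 kept its call in 14 of 15 fits with a bird left out and TRINITY_DN87486_c1_g3 in 12. TRINITY_DN93464_c5_g3 and TRINITY_DN80742_c4_g1 kept theirs in 10 each. With 2 birds a group, and 1 at photorefractory hour 22, small differences were not detectable.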
